A study of Homo sapiens with 15 samples.

Results

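The 8 genes described here encode parts of the machinery that makes and processes RNA. They were taken by symbol from the deposited raw counts of a NanoString cancer pathway panel with 730 endogenous genes, and all 8 were found. POLR2D, POLR2H and POLR2J encode subunits of RNA polymerase II, SF3B1, SRSF2 and U2AF1 encode splicing factors, NPM1 encodes a nucleolar protein, and FUBP1 encodes a protein that binds single-stranded DNA and RNA. The list was drawn up by function and no measured value defined it, although earlier results of these data were known.

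The question was how transcripts for RNA synthesis and processing stand in HCT116 cells, a human colorectal cancer line, exposed to a drug that is built into RNA. Cells were left untreated (control) or were treated for 24 h with 40 µM thymoquinone (TQ), with 15 µM 5-fluorouracil (5-FU), with both drugs together at 35 µM each (Combi), or with 35 µM of SARB, a hybrid molecule in which TQ and 5-FU are joined by an ester. Each of the 5 groups had 3 samples of this 1 line. Below, samples with 5-FU means the 5-FU, Combi and SARB samples. SARB was counted there by its structure, and whether cells free 5-FU from it was not measured. SARB and Combi shared a nominal dose, whereas TQ and 5-FU alone were given at other doses, so their values stand beside the others without a test of dose. The labels do not say whether the 3 samples of a group came from separate cultures, so the tests measure only the spread between these samples.

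RNA polymerase II transcribes the protein-coding genes, and the spliceosome removes introns from its transcripts. 5-FU is a fluorinated uracil. Cells convert it into nucleotides that enter RNA in place of uridine and into a nucleotide that blocks thymidylate synthase, and the resulting damage to RNA processing and ribosome production is a known part of its action. TQ is a quinone from black cumin. NPM1, or nucleophosmin, is an abundant nucleolar chaperone that takes part in ribosome assembly and binds the ARF tumor suppressor. FUBP1 binds an element upstream of the MYC promoter and also takes part in splicing.

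The promoters of NPM1 and SF3B1 are shown because these genes were the ones of the 8 that fell in 5-FU. The stretches are the 250 bases upstream of 1 of the 2 start sites that the RefSeq table lists for each gene in GRCh38.p14, in both genes the downstream one, read 5′ to 3′ on the strand of the gene. NPM1 lies on the plus strand (chr5:171387599-171387848) and SF3B1 on the minus strand (chr2:197435029-197435278).
NPM1: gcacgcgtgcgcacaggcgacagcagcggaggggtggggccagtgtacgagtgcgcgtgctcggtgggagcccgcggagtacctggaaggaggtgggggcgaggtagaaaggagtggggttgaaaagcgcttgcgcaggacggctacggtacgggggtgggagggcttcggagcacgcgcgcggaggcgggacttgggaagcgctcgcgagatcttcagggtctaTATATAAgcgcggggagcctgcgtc
SF3B1: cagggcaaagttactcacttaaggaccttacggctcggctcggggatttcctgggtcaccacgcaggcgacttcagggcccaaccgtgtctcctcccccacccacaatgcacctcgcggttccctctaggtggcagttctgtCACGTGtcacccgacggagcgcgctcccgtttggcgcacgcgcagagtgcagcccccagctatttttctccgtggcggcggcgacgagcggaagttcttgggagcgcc
Capitals in NPM1 mark TATATAA, which starts 25 bases before the start site and was looked for after the sequence had been read. Capitals in SF3B1 mark CACGTG, the E-box to which MYC and related factors can bind, 108 bases before the start site. Searched on both strands of all 35116 promoters in the RefSeq table, TATATAA was present in 2.42% and CACGTG in 6.34%. The stretch before the upstream start site of NPM1 holds no TATATAA but a CCAAT box, which is present in 32% of all promoters, and that of SF3B1, which overlaps the stretch shown, holds the same CACGTG. A match of letters is a description and not a measured site. RefSeq promoters were at hand for POLR2D, POLR2H, SF3B1, U2AF1 and NPM1, that is for 5 of the 8 genes.

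Counts of all endogenous genes summed to 135017 to 607782 per sample, and all 8 genes lay above background, the mean of the negative probes plus 2 SD, in all 15 samples. Levels below are scaled counts, in which 40 housekeeping genes have a common geometric mean. A gene was called higher or lower when its fold change reached 1.5, which is 0.58 on the log2 scale, and its adjusted p did not exceed 0.05. On this scale most genes were lower after treatment, by a median log2 fold change of -0.47 with TQ, -0.41 with SARB, -0.27 with 5-FU and -0.10 with Combi, and TMM scaling, which centers most genes, raised all values of the 8 genes against control. The first cartridge of the assay held control replicate 1 and all TQ, 5-FU and SARB samples, the second held control replicates 2 and 3 and Combi replicate 1, and the third held Combi replicates 2 and 3. The epithelial markers CDH1, ITGB4, LAMB3 and SFN were above background in all samples, and neither leukocyte marker and none of 5 mesenchymal or endothelial markers was. In such bulk samples less RNA per cell and fewer cells of a kind cannot be told apart.

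NPM1 fell in 5-FU, Combi and SARB and had a log2 fold change of -0.025 in TQ. FUBP1 and SRSF2 rose in TQ, and FUBP1 fell in SARB. SF3B1 fell in TQ and in 5-FU, in both by a margin close to the threshold, and both calls were lost with TMM scaling. No subunit of RNA polymerase II passed both thresholds against control. Against control, 3 of the 8 genes were called with TQ, 2 with 5-FU, 1 with Combi and 2 with SARB, where 25.1%, 20.3%, 20.1% and 28.6% of all genes were. Read against those shares, the counts of the 8 genes lie near the background of the panel. The 8 genes had a median log2 fold change of -0.023 with TQ, -0.25 with SARB, -0.12 with 5-FU and -0.27 with Combi. All 4 comparisons share the same 3 control samples. Genes without overlap were common on the panel: all treated samples were below all control samples in 39.5% of genes with TQ, 28.9% with SARB, 27.8% with 5-FU and 16.7% with Combi, and above them in 6.16%, 13.2%, 16.3% and 19.3%.

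**Figure D1:**
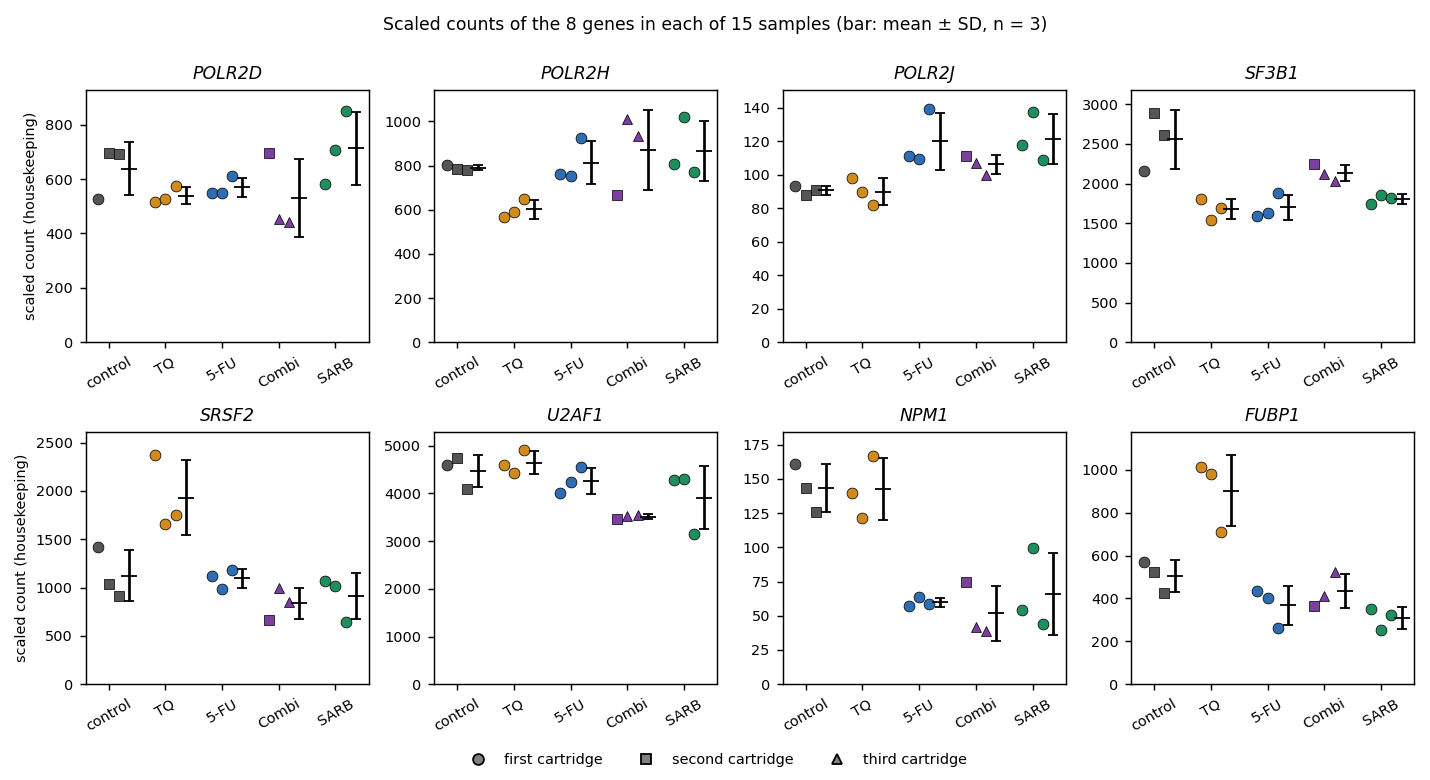
Scaled counts (y axis, counts after housekeeping scaling) of the 8 genes in the 15 samples, by group on the x axis, with a marker shape for the cartridge and a bar for the mean ± SD of each group (n = 3). NPM1 sits between 38.9 and 99.8 in the 9 samples with 5-FU and between 121 and 167 in the 6 others, and FUBP1 and SRSF2 are highest in TQ.

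The subunits of RNA polymerase II had a highest group mean 1.35, 1.45 and 1.35 times the lowest for POLR2D, POLR2H and POLR2J. POLR2D encodes the RPB4 subunit, which forms a stalk with RPB7. Its scaled counts were 526, 695 and 692 in control, 517, 527 and 573 in TQ and 549, 547 and 610.2 in 5-FU. They were 694, 452 and 441 in Combi and 582, 706 and 851 in SARB. Every group overlapped with control, and the value of Combi replicate 1 stood clear of the other Combi values and among the upper control values. POLR2D had log2 fold changes of -0.24 with TQ, 0.16 with SARB, -0.17 with 5-FU and -0.28 with Combi, with adjusted p of 0.252 to 0.483.

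POLR2H encodes RPB8, a subunit shared by RNA polymerases I, II and III. It was tight in control at 802, 785 and 782, and lower in all TQ samples at 566, 591 and 649.8. The 5-FU samples gave 761, 753 and 926, and the Combi samples gave 665, 1010.2 and 936. The SARB samples gave 807, 1021 and 771, which like 5-FU and Combi enclosed the control values. In TQ the log2 fold change was -0.39 ± 0.15 (SE), which passed the adjusted p (0.0467) and not the fold threshold. With TMM scaling it was 0.065, so its direction depends on the scale.

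POLR2J encodes RPB11, which pairs with RPB3 in the core of the enzyme. Its scaled counts were 93.4, 87.7 and 90.8 in control and 97.9, 89.4 and 81.9 in TQ. All samples with 5-FU were above all control samples, with 111, 109 and 139 in 5-FU, 111, 107 and 100.02 in Combi and 118, 138 and 109 in SARB. The log2 fold changes were 0.40 ± 0.16 in 5-FU (adjusted p = 0.0779), 0.22 ± 0.16 in Combi (adjusted p = 0.355) and 0.41 ± 0.16 in SARB (adjusted p = 0.0494), and none reached the fold threshold. With TMM scaling POLR2J was called higher in 5-FU at 0.59 and in SARB at 0.76. Near copies exist under the symbols POLR2J2 and POLR2J3, and whether the probe tells them apart was not checked.

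Splicing factors moved in different directions in TQ. SF3B1 is the largest subunit of the SF3B complex, which holds the branch point of the intron. It was highest in control at 2158, 2896 and 2615, against 1809, 1547 and 1687 in TQ and 1595, 1627 and 1886 in 5-FU. The TQ, 5-FU and SARB samples were all below the lowest control sample, as held for 39.5%, 27.8% and 28.9% of all genes, and Combi replicate 1 was the only Combi sample within the control range. SARB gave 1737, 1859 and 1824 and Combi gave 2244, 2118 and 2035, so these groups did not overlap with each other. SF3B1 fell 1.52-fold in TQ with a log2 fold change of -0.61 ± 0.12 (adjusted p = 5.85e-04), and 1.50-fold in 5-FU with -0.59 ± 0.12 (adjusted p = 4.62e-04). In SARB its value of -0.50 ± 0.11 passed the adjusted p (0.00170) and not the fold threshold, and in Combi it was -0.26 ± 0.11 (adjusted p = 0.0981). Both calls of SF3B1 were lost with TMM scaling, at -0.15 in TQ and -0.39 in 5-FU, and with cartridge as a block, at -0.36 and -0.34. Both were also lost without control replicate 2, at -0.51 and -0.49, the call in TQ also without TQ replicate 2 (-0.55), and the call in 5-FU also without control replicate 3 (-0.57), 5-FU replicate 1 (-0.54) or 5-FU replicate 2 (-0.56). In SARB it became a call without control replicate 1 (-0.61), after background subtraction (-0.62) and with the authors' normalized values (-0.60).

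SRSF2, or SC35, is a serine and arginine rich protein that binds exonic enhancers and marks nuclear speckles. It reached 2375, 1661 and 1748 in TQ against 1415, 1042 and 911 in control. The lowest TQ sample was above the highest control sample, which was control replicate 1, the control that shared a cartridge with TQ. SRSF2 rose 1.71-fold in TQ, with a log2 fold change of 0.78 ± 0.19 (adjusted p = 0.00548), while 3.42% of all genes were called higher there. With cartridge as a block the value was 0.44 (adjusted p = 0.307) and with the authors' normalized values 0.70 (adjusted p = 0.0609), both short of a call, and with TMM scaling it was 1.20. In the other treatments the samples overlapped with control, with 1117, 987 and 1177 in 5-FU, 667, 991 and 855 in Combi and 1071, 1021 and 643 in SARB. Their log2 fold changes were -0.037, -0.42 and -0.31, and none was called.

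U2AF1 is the small subunit of the U2 auxiliary factor and reads the end of the intron. It varied least among the splicing factors, with a highest group mean only 1.32 times the lowest, against 1.52 for SF3B1 and 2.30 for SRSF2. The control samples gave 4587, 4738 and 4101, the TQ samples 4598, 4438 and 4901 and the 5-FU samples 4001, 4235 and 4545. The Combi samples were close together and all below control at 3459, 3537 and 3541, while SARB gave 4282, 4297 and 3149 and overlapped with it. In Combi the log2 fold change was -0.35 ± 0.11 (adjusted p = 0.0245), which is under the fold threshold, and the intervals in TQ (-0.19 to 0.29) and 5-FU (-0.31 to 0.17) lay within it. In TQ the value was 0.50 (adjusted p = 0.00946) with TMM scaling and 0.53 (adjusted p = 0.00199) with the size factors of DESeq2, still under the fold threshold.

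NPM1 gave the largest fold changes of the 8 genes in 5-FU, Combi and SARB. Its scaled counts were 161, 144 and 126 in control and 139.5, 121 and 167 in TQ, and these groups overlapped. They were 57.4, 63.9 and 58.4 in 5-FU, 75.0, 41.6 and 38.9 in Combi and 54.0, 99.8 and 43.8 in SARB. All 9 samples with 5-FU were below all 6 samples without it. The 5-FU samples were close together, whereas the highest Combi and the highest SARB sample stood apart from the other members of their groups. NPM1 fell 2.39-fold in 5-FU (-1.26 ± 0.27 on the log2 scale, adjusted p = 0.00128) and 2.29-fold in SARB (-1.19 ± 0.26, adjusted p = 0.00132). In Combi the fall was 2.88-fold (-1.53 ± 0.27, adjusted p = 1.16e-04). In TQ the log2 fold change was -0.025, with a 95% interval of -0.56 to 0.51, and with TMM scaling it was 0.43 (adjusted p = 0.160).

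The Combi sample with the highest NPM1, replicate 1, ran on the cartridge of control replicates 2 and 3. With cartridge as a block Combi rests on that sample alone, and the value was -0.85 (adjusted p = 0.135), which is no longer a call. In 5-FU and SARB the block rests on control replicate 1 alone, the only control on their cartridge and the control with the highest NPM1. The block gave -1.42 in 5-FU and -1.37 in SARB. Raw counts of NPM1 ran from 42 to 197. The reference annotation lists 50 NPM1 pseudogenes by symbol, and whether the probe also binds transcripts of such copies was not checked.

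FUBP1 was the gene with the widest range of group means, 2.92-fold from SARB to TQ. Its scaled counts were 571, 525 and 424 in control and 1014, 983 and 711 in TQ, with every TQ sample above every control sample. They were 436, 402 and 264 in 5-FU, 367, 412 and 523 in Combi and 352, 252 and 324 in SARB. All SARB samples were below the lowest control and the lowest Combi sample, while 5-FU and Combi overlapped with control. FUBP1 rose 1.78-fold in TQ (0.83 ± 0.19 on the log2 scale, adjusted p = 0.00240) and fell 1.63-fold in SARB (-0.70 ± 0.19, adjusted p = 0.00625). In 5-FU the value was -0.46 ± 0.19 (adjusted p = 0.0792) and in Combi -0.22 ± 0.19 (adjusted p = 0.457), and neither was a call, although FUBP1 passed in 5-FU without 5-FU replicate 1 (-0.60). With TMM scaling the rise in TQ was 1.29 and held, and the value in SARB was -0.35 and did not. With cartridge as a block the value was 0.66 (adjusted p = 0.145) in TQ, no longer a call, and -0.87 in SARB, still a call.

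**Figure D2:**
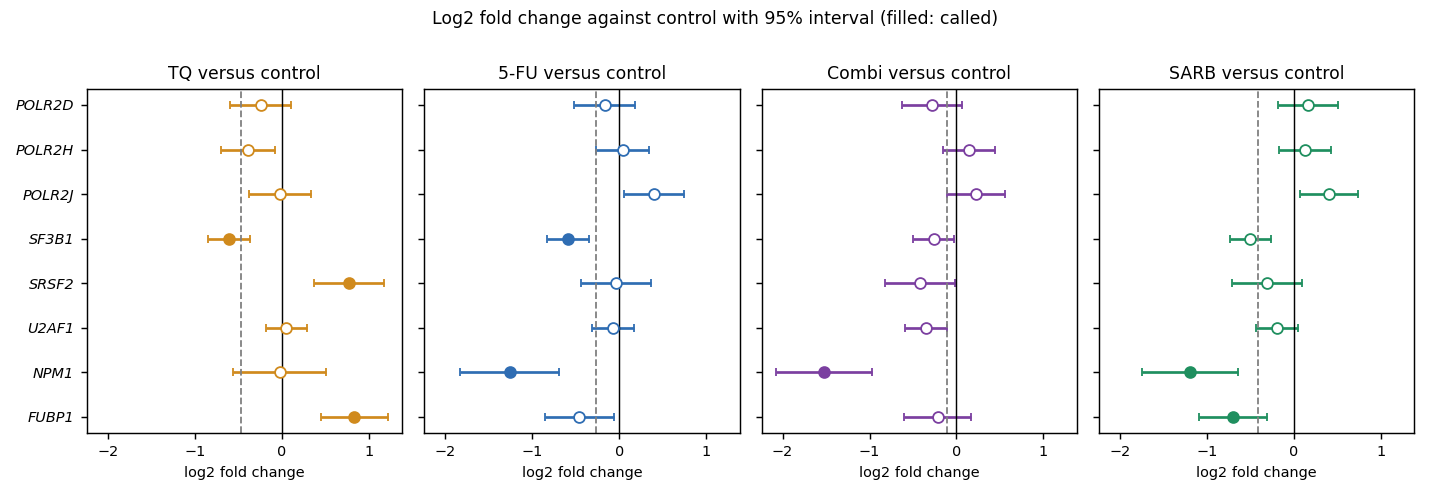
Log2 fold changes against control (x axis) with 95% intervals for the 8 genes in the 4 treatments, where filled points passed both thresholds and the dashed line is the median of all 730 genes. NPM1 is lower in 5-FU, Combi and SARB and at -0.025 in TQ, and FUBP1 lies at 0.83 in TQ and -0.70 in SARB.

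**Figure D3:**
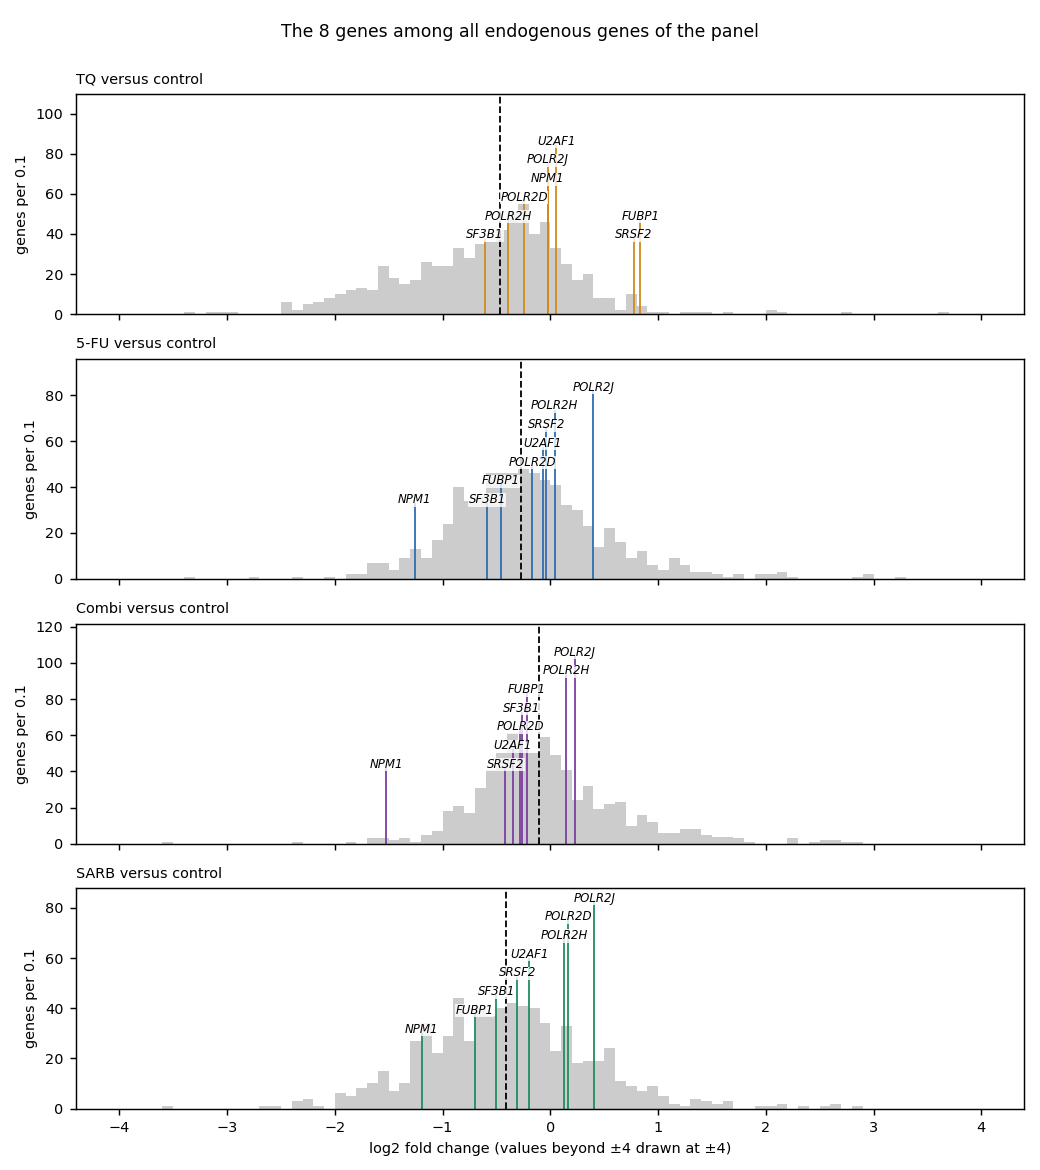
Distribution of the log2 fold changes of all 730 genes against control (x axis; y axis, genes per 0.1) in each treatment, with the 8 genes marked and the median of all genes dashed. In TQ, SRSF2 and FUBP1 lie to the right of nearly all genes, and in 5-FU, Combi and SARB it is NPM1 that lies farthest to the left of the 8.

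In TQ, -0.47 was the median of all genes, and 7 of the 8 genes lay above it. SRSF2 was above 97.7% and FUBP1 above 98.2% of all genes, and only SF3B1 lay below the median. In Combi, NPM1 was lower than all but 1.10% of genes, and in 5-FU and SARB lower than all but 5.76% and 13.6%. The other called falls were less extreme on the panel. FUBP1 in SARB had 34.8% of genes below it, and SF3B1 had 43.9% below it in TQ and 29.2% in 5-FU. POLR2J was above 83.5% of genes in 5-FU and above 85.5% in SARB, although it was not called.

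SARB and Combi, the hybrid and the mixture of its parts at the same nominal dose, were compared directly as the only pair with matched doses. None of the 8 genes was called by edgeR, where 12.2% of all genes were. POLR2D was the member with the largest positive difference, 0.44 ± 0.16 on the log2 scale, with an interval of 0.10 to 0.78 (adjusted p = 0.0630). Without Combi replicate 1 it was 0.68 and passed, and with TMM scaling it was 0.73 and passed as well. FUBP1 was lower in every SARB sample than in every Combi sample, with a log2 difference of -0.49 ± 0.18 and an interval of -0.87 to -0.10 (adjusted p = 0.0705), and without Combi replicate 1 it was called at -0.59. SF3B1 was likewise lower in every SARB sample (-0.24 ± 0.11, adjusted p = 0.149), and such a separation was seen in 28.9% of all genes.

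The intervals of the other differences between SARB and Combi were -0.23 to 0.89 for NPM1, -0.31 to 0.28 for POLR2H, -0.12 to 0.49 for POLR2J, -0.29 to 0.51 for SRSF2 and -0.085 to 0.39 for U2AF1. In this main fit, which leaves cartridge out of account, the interval of NPM1 reaches past the fold threshold and that of POLR2H does not. No cartridge held both groups, so cartridge and treatment cannot be told apart in this pair except through the controls. With cartridge as a block NPM1 was -0.52 and POLR2H 0.34, of opposite sign to the values above.

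The 9 samples with 5-FU, as 5-FU alone, Combi or SARB, were also set against the 6 control and TQ samples. Of the 8 genes 3 were called, NPM1, FUBP1 and SRSF2, and all were lower with 5-FU, where 18.6% of all genes were called and 5.48% were called lower. NPM1 had a log2 difference of -1.31 ± 0.17 (adjusted p = 2.02e-06), and 0.686% of genes had a lower value. FUBP1 had -0.88 ± 0.12 (adjusted p = 3.66e-06) and SRSF2 -0.64 ± 0.12 (adjusted p = 2.21e-04). For FUBP1 and SRSF2 the contrast draws on their high level in TQ, and the samples with and without 5-FU overlapped. The call of SRSF2 was lost without control replicate 1 (-0.54), TQ replicate 1 (-0.55) or SARB replicate 3 (-0.57). NPM1 was the only called gene of the 8 whose 9 and 6 samples did not overlap, as held for 11.1% of all genes.

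POLR2J was higher in all 9 samples with 5-FU than in all 6 others, at 0.35 ± 0.11 (adjusted p = 0.0107), and POLR2H was at 0.30 ± 0.095 (adjusted p = 0.0160). The POLR2H value draws on low TQ samples, which stood at -0.39 against control, and its 9 and 6 samples overlapped. Set against control only, the largest POLR2H rise of any treatment with 5-FU was 0.15, seen with Combi (adjusted p = 0.532). U2AF1 was at -0.23 ± 0.074 (adjusted p = 0.0164), SF3B1 at -0.15 and POLR2D at 0.028. All of these were under the fold threshold. On the first cartridge alone, with 5-FU and SARB against control replicate 1 and TQ, the values were -1.30 for NPM1, -1.08 for FUBP1 and -0.73 for SRSF2. The only control there, control replicate 1, was the highest control for each of these genes. The values of FUBP1 and SRSF2 again draw on their high level in TQ.

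**Figure D4:**
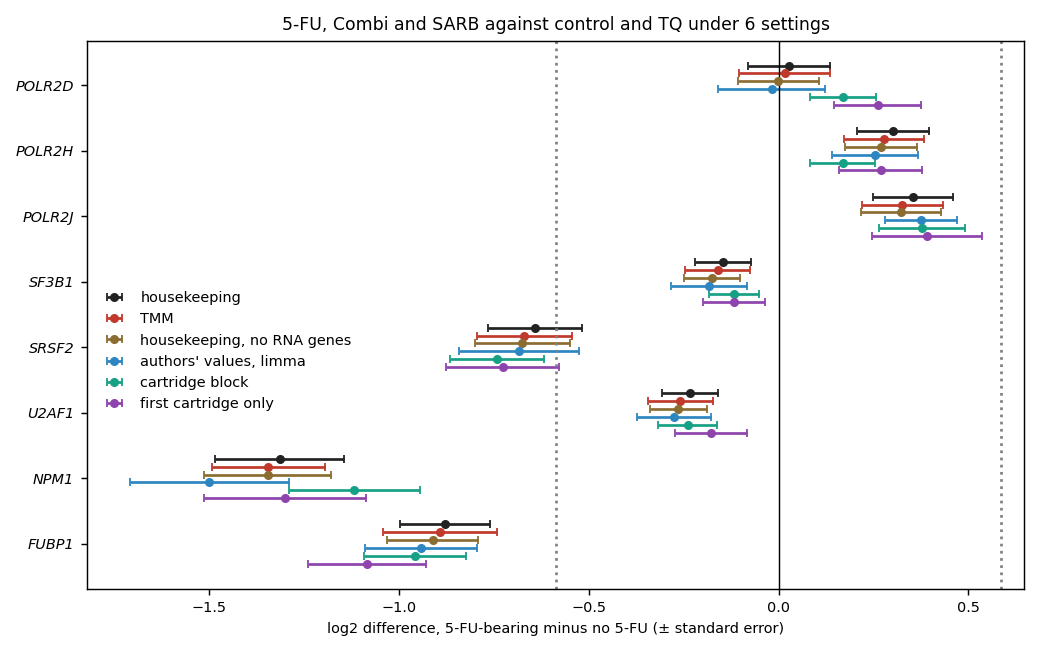
Log2 difference between samples with and without 5-FU (x axis, bars ± SE) for the 8 genes under 6 settings of the fit, with dotted lines at the fold threshold of 1.5. NPM1 and FUBP1 stay beyond the line in every setting drawn, and the first cartridge alone gives -1.30 and -1.08. Every setting keeps TQ among the samples without 5-FU.

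The order of the group means differed from gene to gene. For NPM1 it ran from control and TQ down to SARB, 5-FU and Combi, and the only neighbors that did not overlap were TQ and SARB. For FUBP1 and SRSF2, TQ came first and was apart from control, with all lower neighbors overlapping. For POLR2J the order was SARB, 5-FU, Combi, control and TQ, with a gap between Combi and control. For POLR2H the gap was between control and TQ, and for SF3B1 between Combi and SARB. In POLR2D and U2AF1 all neighbors overlapped.

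Other genes of the same machinery on the panel were few. Of 27 listed genes for transcription by RNA polymerase II, 7 were among the endogenous genes, and besides the 3 subunits these were ERCC2, GTF2H3, MNAT1 and MED12. GTF2H3, a subunit of the general factor TFIIH, was 1434 to 1858 in control and 1308 to 1432 in TQ, but 937 to 976 in the 5-FU samples, 940.1 to 1097 in Combi and 894 to 999 in SARB. It fell by 0.78, 0.72 and 0.81 on the log2 scale, and like NPM1 it was lower in all 9 samples with 5-FU than in all 6 others. MNAT1, which assembles the kinase of TFIIH, fell by 0.88 in TQ and by 0.69 in 5-FU on the log2 scale. MED12, a subunit of Mediator, was called only in the comparison of samples with and without 5-FU, at 0.59. That contrast draws on its low level in TQ, where it was at -0.56 against control, and the samples overlapped. ERCC2, a TFIIH helicase, was called in none of the 6 comparisons.

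Of 18 listed splicing genes the 3 described here were the only endogenous ones, and of 12 listed nucleolar genes NPM1 was. A list of 12 genes of RNA decay and polyadenylation and a list of 14 genes of fluoropyrimidine metabolism had none. A further 12 RNA-related genes were among the 40 housekeeping genes, so they set the scale and cannot be tested on it. Their median log2 difference from control was 0.097 for TQ, -0.012 for 5-FU, -0.029 for Combi and -0.018 for SARB. The 28 other housekeeping genes gave -0.014, 0.018, 0.030 and 0.044. Scaling by those 28 alone kept every call of the 8 genes but that of SF3B1 in TQ, which came to -0.58.

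MYC, MDM2 and CDKN2A were among the genes listed as partners of FUBP1 and NPM1. MYC, whose upstream element FUBP1 binds, was 1733 ± 202 (SD, n = 3) in control and 2463 ± 146 in TQ, and it was 1435 ± 67.4 in 5-FU, 1224 ± 186 in SARB and 1163 ± 133 in Combi. Like FUBP1 it was highest in TQ, but its log2 fold changes of 0.51 in TQ, -0.58 in Combi and -0.50 in SARB stayed under the fold threshold. In the samples with 5-FU against those without, MYC was called lower at -0.70. That contrast draws on its high level in TQ, and the samples overlapped. MDM2, a ubiquitin ligase, rose in the treatments in which NPM1 fell. On the log2 scale the rise was 2.05 in 5-FU, 2.29 in Combi and 2.14 in SARB. CDKN2A, which encodes ARF, was not called in any of the 6 comparisons.

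The panel genes whose log2 levels followed each of the 8 most closely over the 15 samples were ranked by Pearson r among 513 candidates, as a description, since the points share treatments, cartridges and scaling. NPM1 ran most closely with HIST1H3H (r = 0.90), a histone gene, and CCNB1 (r = 0.89), which encodes the mitotic cyclin B1. SRSF2 ran with the heat shock genes HSPA2 (r = 0.90) and HSPA1A (r = 0.89), and FUBP1 with the stress-induced factor DDIT3 (r = 0.85) and the histone methyltransferase SETD2 (r = 0.84). SF3B1 ran with the replication kinase CDC7 (r = 0.93) and CTNNB1 (r = 0.90), the gene of beta-catenin, and U2AF1 with CDKN1B (r = 0.82) and RAC3 (r = 0.82). POLR2J ran with GNA11 (r = 0.90) and ITGA6 (r = 0.86), POLR2H with PCNA (r = 0.87) and COL27A1 (r = 0.86), and POLR2D only loosely with MNAT1 (r = 0.58) and PBRM1 (r = 0.56). After TMM scaling the same pair led for NPM1, in the other order, while both leading genes changed for POLR2D, POLR2J, U2AF1 and FUBP1.

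Among the 8 genes themselves SRSF2 ran with U2AF1 (r = 0.78) and FUBP1 (r = 0.73), and U2AF1 with NPM1 (r = 0.75), and after TMM scaling these values were 0.90, 0.81 and 0.66. FUBP1 ran against POLR2J (r = -0.79) and POLR2H (r = -0.73) on the housekeeping scale, but after TMM scaling the values were -0.10 and -0.27.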

How the data were processed

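Gene expression was measured in 15 samples of HCT116 cells with the nCounter PanCancer Pathways panel of NanoString, which counts color-coded probes without amplification. The raw counts deposited by the authors list each gene with 1 count per sample and entered the main tests as they are. The authors also deposited normalized values, a signal on a linear scale that equals, within 1%, the counts after subtraction of the negative probes' geometric mean, times 1 factor per sample, and these served as an alternative. A deposited table of the authors' own fold changes and p-values was not used.

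Samples were grouped by their titles, and cartridges were read from the scanner output names in the labels. Counts of 730 endogenous genes, offset by the geometric mean of 40 housekeeping genes, entered 1 quasi-likelihood fit of the 5 groups in edgeR 4.0.16 (R 4.3.3), with Benjamini-Hochberg adjustment over the 730 genes. Alternatives used TMM, DESeq2 1.42.0 or limma 3.58.1, another filter, a cartridge or replicate block, or left out 1 sample at a time. No group held a pair of samples that agreed within sampling noise. All 8 genes were named in the text, and the 2 genes most alike to each were chosen by Pearson r. The 8 genes and the gene lists were chosen with earlier results of these data known, and some listed items are not reported here. Errors are SE for fold changes and SD for levels.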

Additional observations from a re-analysis of the deposited data

How the results depend on the processing

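NPM1 in 5-FU, in SARB and in the samples with 5-FU against those without, and FUBP1 in the latter comparison, kept their direction and their call under every alternative tried. For NPM1 in 5-FU and SARB the cartridge block, 1 of these alternatives, rests on control replicate 1 alone. For FUBP1 every alternative kept the TQ group, on whose high level that comparison draws. Against control in the main fit, FUBP1 was not called in 5-FU (-0.46) or Combi (-0.22). FUBP1 in TQ lost its call with cartridge as a block alone, NPM1 in Combi likewise, and the cause was not tested, although the block leaves 1 control or 1 Combi sample to carry these contrasts. With the cartridge block the number of the 8 genes called was 0 in TQ, 1 in 5-FU and 0 in Combi, and the median over the 8 was -0.22 in 5-FU and -0.33 in Combi. Values that changed sign with it were POLR2D 0.035 in TQ, POLR2D 0.11 in 5-FU, POLR2D 4.5e-04, POLR2H -0.24 in Combi and POLR2H 0.34, SF3B1 0.040, SRSF2 -0.093, NPM1 -0.52 in SARB against Combi.

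TMM scaling and the size factors of DESeq2 raise the values against control by construction, since they center the bulk of genes. The median of the 8 genes became 0.44 and 0.48 in TQ, 0.072 and 0.082 in 5-FU, -0.18 and -0.24 in Combi, 0.061 and 0.063 in SARB, and 0.43 with DESeq2 in SARB against Combi, where 1 of the 8 was called under both. With TMM the sign changed in TQ (POLR2D 0.22, POLR2H 0.065, POLR2J 0.46, NPM1 0.43), 5-FU (POLR2D 0.032, SRSF2 0.14, U2AF1 0.11), SARB (U2AF1 0.13) and SARB against Combi (POLR2H 0.22, SF3B1 0.025). With DESeq2 it changed in TQ (POLR2D 0.26, POLR2H 0.099, POLR2J 0.50, NPM1 0.46), 5-FU (POLR2D 0.043, SRSF2 0.14, U2AF1 0.12), SARB (U2AF1 0.13), SARB against Combi (POLR2H 0.29, SF3B1 0.098) and the comparison by 5-FU (POLR2D -0.013). Among all genes the calls, higher and lower, went with TMM from 25 and 158 to 79 and 44 in TQ, from 74 and 74 to 104 and 41 in 5-FU, from 63 and 146 to 120 and 68 in SARB, and from 7 and 82 to 39 and 54 in SARB against Combi.

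Without the RNA-related housekeeping genes the median was -0.31 in Combi, and small values changed sign (POLR2J 0.0054 in TQ, POLR2H 0.022 in SARB against Combi, POLR2D -3.2e-04 by 5-FU). Subtracting the background and the authors' normalized values gave a median of -0.36 and -0.36 in Combi, and turned POLR2J 0.051, U2AF1 -0.049 in TQ (POLR2J 0.046, U2AF1 -0.049 with the authors' values), POLR2H -0.018 in 5-FU (-0.025) and POLR2D -0.014 by 5-FU (-0.018). None of the values that changed sign had been called. Over all these settings, with all samples kept or the first cartridge alone, 13 calls of the 8 genes were lost and 8 gained.

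With 1 sample left out, the number of the 8 genes called was 1 to 2 in 5-FU and 0 to 2 in SARB against Combi, and the median in Combi was -0.29 to -0.20. Small values crossed 0: in TQ, POLR2J -0.069 to 0.032, U2AF1 -0.0055 to 0.097 and NPM1 -0.16 to 0.10. In 5-FU these were POLR2H -0.061 to 0.094 and SRSF2 -0.17 to 0.16, and in SARB POLR2H -0.0014 to 0.21. In SARB against Combi they were POLR2H -0.17 to 0.11, SRSF2 -0.026 to 0.32 and NPM1 -0.042 to 0.63, and by 5-FU POLR2D -0.050 to 0.071.

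No pairing of the samples by replicate number was seen, although such correlations cannot show that there was none. Same-numbered samples of different groups had correlations of -0.68 to 0.39 in their deviations. Of 30 such pairs 9 were over 0.1, and 2 of 15 samples correlated best with their own number. A replicate block left the 8 genes at 3, 2, 1, 2, 0 and 3 calls in TQ, 5-FU, Combi, SARB, SARB against Combi and the comparison by 5-FU, as without it, and all genes at 162 calls in TQ against 183.

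The calls over all genes fell by more than 1.5 times with the cartridge block, from 183 to 39 with TQ, 209 to 106 with SARB, 148 to 98 with 5-FU, 147 to 96 with Combi and 89 to 1 in SARB against Combi, and with counts under 20 set to 20 to 92 in TQ.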
